A study of Saccharomyces cerevisiae S288C with 24 samples.

Results

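This report compares Sc12+IB, cultures of the *TRP5* deletion strain Sc12 kept with 1.2% isobutanol (IB) and no added tryptophan, with WT+IB, cultures of *Saccharomyces cerevisiae* BY4741 kept in the same way. The libraries were chosen by these labels alone, 3 per group, so 6 of the 24 RNA libraries of the series make up the comparison, and levels were measured at 6346 of the 6905 loci with a fragment estimate. BY4741 is a haploid MATa laboratory strain that carries deletions of *HIS3*, *LEU2*, *MET17* and *URA3*, and Sc12 is a BY4741 derivative from a deletion library that also lacks *TRP5*. All cultures stood for 24 h in YPD, a rich medium of yeast extract, peptone and glucose, so that amino acids were present also where tryptophan was not added. 2 further strain comparisons were used as reference: Sc12 against WT without isobutanol, and Sc12+Trp+IB against WT+Trp+IB, which had 1.2% isobutanol and 200 µg/ml tryptophan. Whether the replicates came from separate cultures is not given in the sources used here, so p-values measure the spread between these libraries, which may be technical, and Sc12 is a single strain. RNA was taken from whole cultures, and a lower level in such bulk samples can come from fewer cells of a kind or from less RNA per cell, which cannot be told apart. The paper measured cell density at harvest and describes a growth defect under isobutanol that was more severe in Sc12 than in the wild type. The groups may thus differ in growth stage as well as in strain, and the part of growth stage in these results was not tested.

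Tryptophan synthase, encoded by *TRP5*, catalyses the last step of tryptophan synthesis, and a yeast strain without it depends on tryptophan from the medium. Uptake of aromatic amino acids by permeases of the plasma membrane is known to be sensitive to alcohols and other membrane stress. When an amino acid runs short, yeast cells are known to raise translation of the activator Gcn4, whose targets include most amino acid synthesis genes, while poor nitrogen supply lifts nitrogen catabolite repression through GATA factors such as Gln3 and Gat1.

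The strain labels were checked first. *TRP5*, at 446412 to 448535 of chromosome VII, had 4471, 3534 and 3134 fragments in WT+IB and 1, 5 and 3 in Sc12+IB, and the ratio fitted to these few fragments rose from 733-fold to 1099-fold lower when Sc12+IB replicate 2 was left out. *LEU2*, *MET17* and *URA3* had 0 fragments in all 24 libraries, while *HIS3* lies in a locus that was counted together with *DED1* and could not be checked. The MATa marker *STE2*, the α-factor receptor, had 488 to 742 fragments in these 6 libraries, and *BAR1*, a protease of a cells, had 350 to 651. The a-factor gene *MFA1* had 89, 96 and 43 fragments in WT+IB and 19, 12 and 5 in Sc12+IB, without overlap. *MFA2*, the other a-factor gene, had sums of 175 in WT+IB and 73 in Sc12+IB. For *AGA2* and *ASG7*, also genes of a cells, the sums were 534 and 457, and 496 and 473. Of the genes known from α cells, *MF(ALPHA)1*, which encodes α-factor, had 81, 52 and 49 fragments in WT+IB and 741, 775 and 1118 in Sc12+IB, so the groups did not overlap and the marker went against the MATa label in Sc12+IB. The other α markers *STE3*, *SAG1* and *MF(ALPHA)2* had fewer fragments in Sc12+IB than in WT+IB, with sums of 196 against 1059, 1678 against 3140 and 175 against 304. Library sizes were 9725586 to 13209147 fragments in WT+IB and 10859875 to 11412706 in Sc12+IB.

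Levels are given as CPM, the fragments of a locus scaled to library size with TMM factors, which are set on the bulk of the loci. A locus was called a DEG where the quasi-likelihood test of edgeR gave a log2 fold change beyond 1 in either direction and an adjusted p (Benjamini-Hochberg, over all loci tested) under 0.05, and adjusted p values below are from this test. Of the loci tested, 16.1% were DEGs higher in Sc12+IB and 11.1% were DEGs lower, and the median log2 fold change over all loci was -0.02. The 6 libraries did not overlap between the groups at 74.2% of all loci tested. The same held for 1017 of the 1024 DEGs that were higher and 691 of the 702 that were lower. It was also required in choosing the 20 largest rises and 20 largest falls. A lack of overlap named below is therefore a description and no further support for a call. The DEGs that were higher took 15.9% to 16.4% of the fragments in the WT+IB libraries and 48.0% to 52.6% in the Sc12+IB libraries, whereas the DEGs that were lower went from 11.7% to 12.9% down to 2.29% to 2.93%. These shares describe loci chosen by this comparison and carry no test. When TMM was replaced by library totals the scale of all loci moved by -0.65 on the log2 scale, and 8.07% of loci were then called higher and 33.9% lower, so the direction of any modest change depends on the scaling. In WT+IB the locus with the most fragments was *TDH3*, a glyceraldehyde-3-phosphate dehydrogenase gene, with 1.66% of all fragments, and 9 of the 10 loci with the most fragments encode enzymes of glycolysis, with *HXK1* counted together with an overlapping locus. In Sc12+IB the first 5 were the pyruvate decarboxylase genes *PDC1* (2.2%) and *PDC5* (1.76%), the amino acid permease gene *AGP1* (1.15%) and the chaperone genes *HSP104* (1.13%) and *HSP82* (1.12%).

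**Figure D1:**
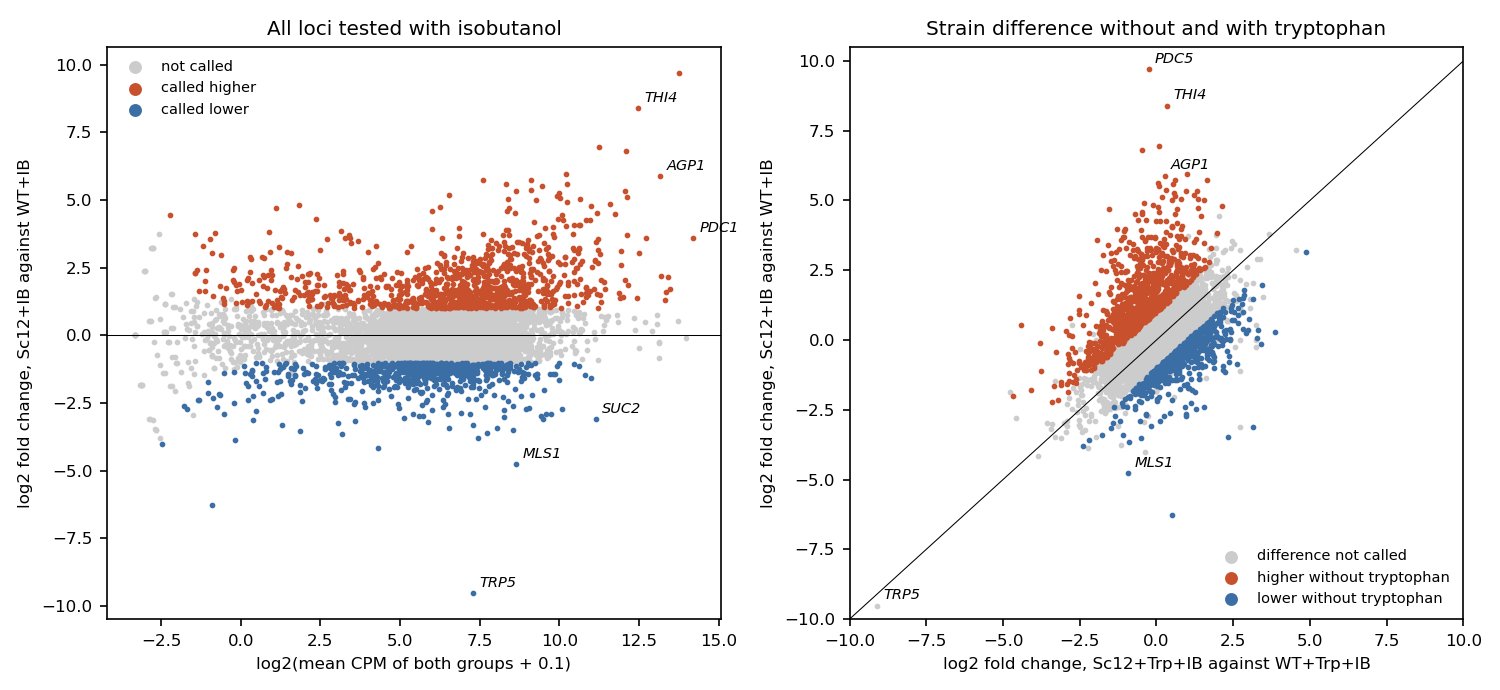
Left, the log2 fold change of Sc12+IB against WT+IB for each of the 6346 loci tested, over the log2 mean CPM of both groups plus 0.1, with loci called higher in red and lower in blue. Right, the same fold change over that of Sc12+Trp+IB against WT+Trp+IB, with the diagonal as a line and colours for loci whose strain difference was called different between the conditions (986 higher and 631 lower without tryptophan).

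Most genes of the pathway that *TRP5* belongs to rose. Of 11 genes of the shikimate pathway and of tryptophan, tyrosine and phenylalanine synthesis, 7 were called higher and 0 lower, with a median log2 fold change of 1.47, and with library totals 5 were called higher and 2 lower. *ARO3*, the phenylalanine-inhibited DAHP synthase gene at the entry of the pathway, had 239, 355 and 335 CPM in WT+IB and 2610, 2784 and 3016 CPM in Sc12+IB. No library of one group came near those of the other, and the log2 fold change was 3.18 (SE 0.16, adjusted p = 1.9e-14). *ARO4*, the tyrosine-inhibited DAHP synthase gene, went from 198, 203 and 188 CPM to 1261, 1409 and 1665 CPM (log2 fold change 2.88, SE 0.15). *ARO1* and *ARO2*, which carry the shikimate pathway on to chorismate, rose by 2.01 and 1.91 on the log2 scale. Within the tryptophan branch, *TRP3*, which encodes indole-3-glycerol-phosphate synthase, had 109, 162 and 135 CPM in WT+IB and 1002, 1173 and 1406 CPM in Sc12+IB (log2 fold change 3.14, SE 0.14, adjusted p = 3.3e-15). *TRP2*, the anthranilate synthase gene, and *TRP4*, the anthranilate phosphoribosyltransferase gene, rose by 1.31 and 1.47. By contrast *TRP1*, which encodes phosphoribosylanthranilate isomerase, had a log2 fold change of -0.57 and was not called, and neither were *TYR1* (0.75) and *PHA2* (-0.43) of tyrosine and phenylalanine synthesis or the chorismate mutase gene *ARO7* (0.32). The neighbours of the deleted gene also differed: *CWH41*, a glucosidase gene of the endoplasmic reticulum, had a log2 fold change of -1.26, and *PGD1*, a Mediator subunit gene, of 1.27. *YGL024W*, which overlaps *PGD1* and was counted without strand, had 3.15.

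Many genes of other amino acid pathways rose as well. All 10 genes of lysine synthesis were called higher, 11 of 12 of leucine, isoleucine and valine synthesis, 7 of 10 of arginine synthesis and 5 of 7 of histidine synthesis, and 0 genes of these lists were called lower. Their medians were 1.83, 1.98, 1.82 and 2.43 on the log2 scale. The genes called higher include the regulators *LYS14* (1.28) and *LEU3* (2.16) and the carriers *OAC1* (2.68) and *ORT1* (1.99), which are not enzymes of synthesis. One of the histidine calls is the locus HIS3/YOR203W/DED1 (1.53), which cannot be read as *HIS3*, a gene this strain lacks. Library totals gave 5 lysine, 8 branched-chain, 6 arginine and 4 histidine genes called higher, with 1 branched-chain gene called lower. *HIS4*, a histidine synthesis gene with several enzyme activities, had 369, 353 and 377 CPM in WT+IB and 3656, 4113 and 5237 CPM in Sc12+IB (log2 fold change 3.57, SE 0.12, adjusted p = 4.4e-18). *ARG4*, the argininosuccinate lyase gene, rose from 281, 296 and 302 CPM to 5723, 6556 and 7649 CPM without overlap of the groups, *LYS1*, the last gene of lysine synthesis, by 4.31, and *LEU1*, which encodes isopropylmalate isomerase, by 4.09. Among the genes for aspartate, threonine, serine and glycine synthesis 8 of 22 were called higher and 4 lower, and the asparagine synthetase gene *ASN1* had 718, 870.1 and 809 CPM in WT+IB and 5944, 6838 and 8254 CPM in Sc12+IB. The mRNA of *GCN4* itself was not called: it had 1519, 1144 and 1331 CPM in WT+IB and 1254, 1482 and 1579 CPM in Sc12+IB, so the groups overlapped, and its log2 fold change was 0.11 with TMM and -0.55 with library totals. Of the cytosolic aminoacyl-tRNA synthetase genes 5 of 19 were called higher and 0 lower, among them *KRS1* for lysine (2.49), *YDR341C* for arginine (3.27) and *WRS1* for tryptophan (1.51), but 2 higher and 4 lower with library totals.

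The letters TGACTC, the core of the motif bound by Gcn4 and by Bas1, were searched on both strands of the 500 bases before each coding start. They were found in 13.0% of 5722 promoters, in 10 of 10 promoters of arginine synthesis, 10 of 12 of leucine, isoleucine and valine synthesis, 5 of 10 of lysine synthesis and 4 of 5 of histidine synthesis. The aromatic list had a match in 6 of 11 promoters and the sulfur list described below in 10 of 27. For aspartate, threonine, serine and glycine synthesis it was 17 of 22, with 8 of 22 genes called higher and 4 lower. Of the thiamine list below, 1 of 23 promoters held a match while 19 genes were called higher. The purine synthesis genes, also known targets of Bas1, had a match in 12 of 14 promoters, yet 2 of these 14 genes were called higher and 4 lower, with a median log2 fold change of -0.61. Those called higher include the regulator gene *BAS1* itself (3.00), which is a member of this list. Of the promoters of DEGs that were higher 22.5% held a match, and of DEGs that were lower 8.36%. Windows of 120 bases are shown for 2 of the genes that rose, in the direction of the gene with the matches in capitals. In all, 18 promoters of DEGs and regulators were examined for the motifs of this report after their levels were known, and the 8 windows printed here and below were picked because they hold matches. Of the 7 examined for TGACTC, the 500 bases before *TRP5* and *GCN4* held 0 matches. The sequences are from RefSeq, build R64, at chrIII:68506-68625 for *HIS4* and chrXVI:877733-877852 for *MET16*, both on the minus strand.
HIS4: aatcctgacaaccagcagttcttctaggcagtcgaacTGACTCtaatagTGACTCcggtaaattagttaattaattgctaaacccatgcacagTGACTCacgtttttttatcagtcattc
MET16: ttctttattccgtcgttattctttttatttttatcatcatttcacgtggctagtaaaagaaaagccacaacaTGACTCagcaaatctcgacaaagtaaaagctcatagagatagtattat

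Genes of sulfur metabolism rose nearly without exception. Of 27 genes of sulfate assimilation and of methionine and cysteine synthesis 26 were called higher and 0 lower, with a median log2 fold change of 3.10, and their share of all fragments went from 0.323%, 0.308% and 0.315% in WT+IB to 2.2%, 2.34% and 2.45% in Sc12+IB. *MET16*, the gene of phosphoadenylylsulfate reductase whose promoter window is shown above, had 26.4, 26.7 and 24.5 CPM in WT+IB and 908, 1091 and 1235 CPM in Sc12+IB. The groups did not overlap, and the log2 fold change was 5.38 (SE 0.12, adjusted p = 1.2e-20). *STR3*, the cystathionine β-lyase gene, went from 44.4, 29.3 and 39.3 CPM to 1958, 2176 and 2907 CPM, and *MET5*, a sulfite reductase subunit gene, from 62.9, 44.0 and 51.0 CPM to 1594, 1832 and 2260 CPM. The list also holds regulators and transporters, and its methionine permease genes are counted again in the permease list below. *MUP1*, the high-affinity permease, had 223, 184 and 216 CPM in WT+IB and 7108, 8402 and 9519 CPM in Sc12+IB. *MUP3* was higher by 5.00 on the log2 scale. Among the regulators of these genes, the DNA-binding factor *MET32* rose by 3.68, *MET28* by 2.50 and the activator *MET4* by 1.64, whereas *CBF1*, the 1 gene of the list that was not called, had 0.38.

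Transporters for amino acids, peptides and other nitrogen sources made up many of the largest rises. Of 24 permease genes 16 were called higher and 2 lower, with a median log2 fold change of 2.29, and of 34 genes under nitrogen catabolite repression 19 were called higher and 5 lower, with a median of 1.56. Some genes, among them *AGP1*, *GAP1*, *UGA4* and *PTR2*, are members of both lists. *AGP1*, a permease of broad specificity, had 351, 257 and 308 CPM in WT+IB and 15198, 17278 and 21855 CPM in Sc12+IB (log2 fold change 5.89, SE 0.23, adjusted p = 1.1e-16). *MEP2*, the high-affinity ammonium permease and sensor, went from 276, 238 and 237 CPM to 7137, 8664 and 10509 CPM, and the general amino acid permease *GAP1* from 207, 185 and 184 CPM to 3704, 4178 and 5360 CPM. None of these groups overlapped. *UGA4*, the GABA permease, had 16.6, 10.4 and 11.0 CPM in WT+IB and 488, 538 and 851 CPM in Sc12+IB, *DUR3*, the urea transporter, rose by 5.06, the urea amidolyase gene *DUR1,2* by 4.26 and the oligopeptide transporter *OPT1* by 5.25. The tryptophan permease *TAT2* had 153, 136 and 143 CPM in WT+IB and 215, 222 and 227 CPM in Sc12+IB, and its log2 fold change of 0.62 did not reach the threshold, whereas *TAT1*, which also carries tryptophan and tyrosine, rose by 1.83. Not all members moved up: *PTR2*, the transporter of di- and tripeptides, had 121, 84.6 and 111 CPM in WT+IB and 8.29, 15.1 and 11.8 CPM in Sc12+IB, and its log2 fold change was -3.18 (SE 0.24, adjusted p = 2.5e-11). *DAL1* (-1.55), *DAL2* (-1.36), *OPT2* (-1.36) and *GDH3* (-1.23) were also called lower. The genes *DAL3* (0.98), *DAL4* (-0.87) and *DAL7* (-0.16) were not called, while *DAL5* (1.55) was called higher. Among the GATA factors, the activators *GAT1* and *GLN3* rose by 2.67 and 1.76. The repressors were divided, since *DAL80* had 13.7, 15.3 and 11.7 CPM in WT+IB and 6.63, 4.24 and 6.94 CPM in Sc12+IB (log2 fold change -1.19) while *GZF3* was called higher at 1.01, a call lost without Sc12+IB replicate 3 (0.90) and without WT+IB replicate 2 (0.94).

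The GATA factor letters GATAAG were found, on either strand of the same 500 bases, in 25 of 34 promoters of nitrogen catabolite repression genes against 22.7% of all promoters. Of the DEGs that were higher 26.3% held a match, and of the DEGs that were lower 20.6%. Windows are shown for 3 genes that rose and for *DAL80*, which fell, chosen because they hold several matches and after the levels were known. They lie at chrXIV:356984-357103 for *MEP2*, chrIV:83784-83903 for *UGA4*, chrXI:514711-514830 for *GAP1* and chrXI:506571-506690 for *DAL80*, all on the plus strand of R64 from RefSeq, with the matches in capitals.
MEP2: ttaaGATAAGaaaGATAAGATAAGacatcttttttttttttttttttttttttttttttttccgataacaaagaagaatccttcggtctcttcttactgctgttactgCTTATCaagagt
UGA4: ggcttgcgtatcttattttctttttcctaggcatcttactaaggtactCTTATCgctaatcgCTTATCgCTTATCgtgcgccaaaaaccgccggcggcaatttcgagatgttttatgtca
GAP1: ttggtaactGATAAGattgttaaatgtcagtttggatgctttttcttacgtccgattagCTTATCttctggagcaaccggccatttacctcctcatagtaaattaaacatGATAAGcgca
DAL80: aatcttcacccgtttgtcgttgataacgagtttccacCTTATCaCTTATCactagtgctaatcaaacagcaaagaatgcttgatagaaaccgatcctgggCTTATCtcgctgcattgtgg

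**Figure D2:**
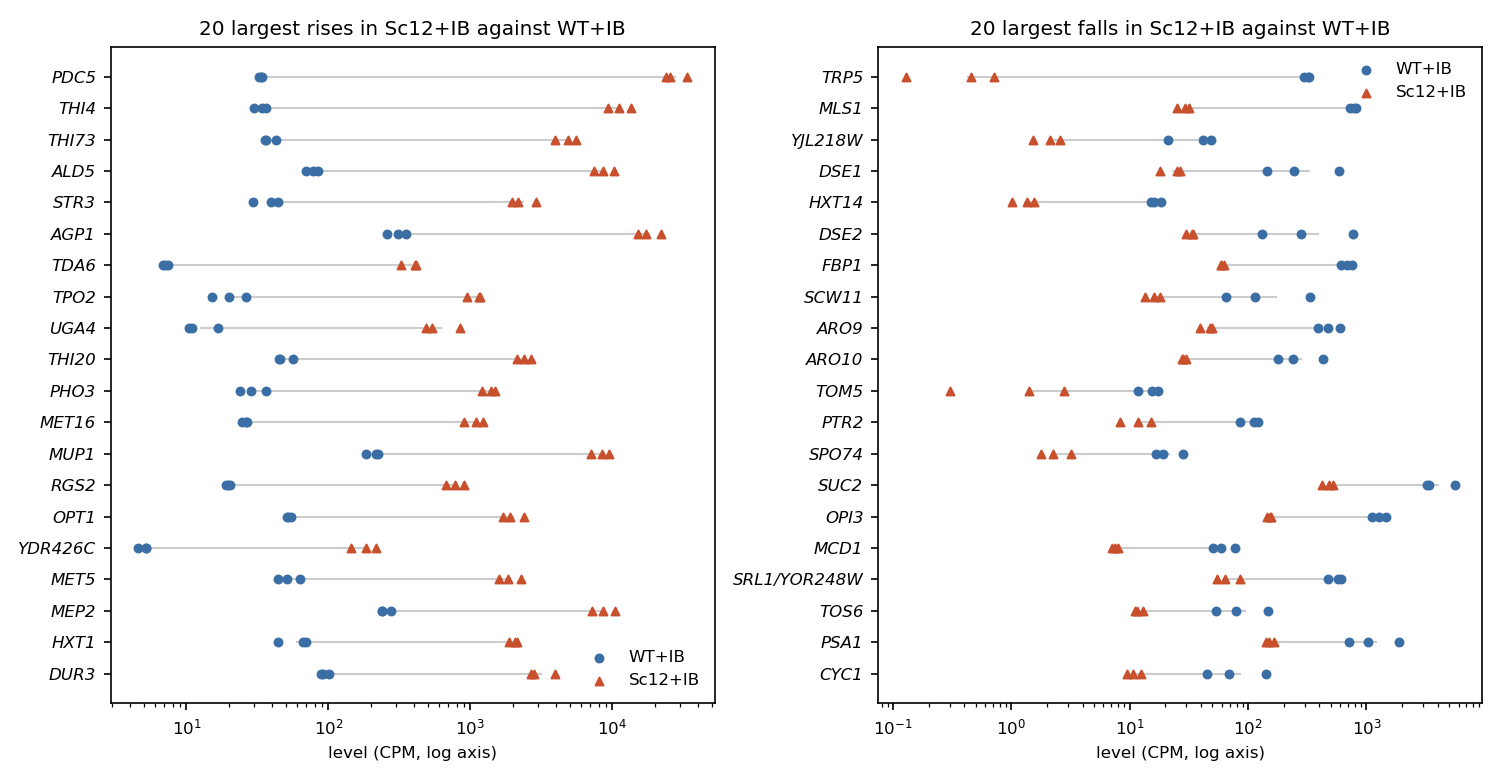
Level in CPM on a log axis of the 20 genes with the largest rise (left) and the 20 with the largest fall (right) in Sc12+IB against WT+IB, 1 point per library and a line between the group means. The groups do not overlap for any gene shown, which the choice of the genes required, and the WT+IB points of *DSE1*, *DSE2* and *SCW11* lie far apart.

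Several of the largest rises were of genes tied to thiamine, whose diphosphate is the cofactor of pyruvate decarboxylase. Of 23 genes of thiamine synthesis, salvage and uptake 19 were called higher and 0 lower, and the share of fragments of the list was 0.0956%, 0.0824% and 0.0824% in WT+IB and 1.65%, 1.83% and 1.92% in Sc12+IB. *THI20*, a kinase gene of thiamine synthesis, had 56.8, 45.3 and 44.6 CPM in WT+IB and 2117, 2398 and 2655 CPM in Sc12+IB (log2 fold change 5.61, SE 0.13, adjusted p = 3.4e-20). *PHO3*, a thiamine-repressible acid phosphatase, went from 36.2, 23.9 and 28.6 CPM to 1208, 1390 and 1491 CPM, and the thiamine transporter *THI7* from 92.4, 70.6 and 69.8 CPM to 2120, 2491 and 2455 CPM. The regulators *THI2* and *THI3* rose by 2.56 and 2.85, whereas *PDC2* had 0.22 and was not called. The near-identical genes *THI5*, *THI11*, *THI12* and *THI13* had under 40 CPM in every one of these libraries, and the counting may have split or lost their reads. Among the decarboxylases, *PDC1*, the main pyruvate decarboxylase, had 2068, 3506 and 3047 CPM in WT+IB and 28781, 32475 and 42663 CPM in Sc12+IB, *PDC5*, its isozyme, went from 33.9, 33.3 and 32.7 CPM to 23880, 25403 and 33677 CPM and *PDC6* from 36.9, 50.8 and 50.5 CPM to 225, 259.9 and 294 CPM. None of the 3 genes had groups that overlapped, and the log2 fold changes were 3.59, 9.70 and 2.50.

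The Ehrlich pathway, by which yeast turns amino acids into fusel alcohols such as isobutanol, was divided. Of 22 genes 10 were called higher and 3 lower, and 8 and 8 with library totals. *BAT1*, the mitochondrial branched-chain aminotransferase, had 109.5, 79.5 and 87.6 CPM in WT+IB and 1028, 1205 and 1263 CPM in Sc12+IB (log2 fold change 3.66), while *BAT2*, the cytosolic form, went from 1888, 2451 and 2162 CPM to 1030, 1130 and 1404 CPM and was not called (log2 fold change -0.87). *ARO9*, the aromatic aminotransferase II gene, had 595, 390.3 and 471 CPM in WT+IB and 49.9, 47.6 and 38.9 CPM in Sc12+IB, and *ARO10*, a phenylpyruvate decarboxylase gene, 426, 179 and 240.0 CPM and 28.2, 29.8 and 27.4 CPM. Both fell without overlap of the groups, with log2 fold changes of -3.41 (SE 0.20) and -3.31 (SE 0.30). *ARO9* overlaps another annotated locus, and *ADH2*, the alcohol dehydrogenase that oxidises ethanol, was the other gene of the list that fell (-2.72). *PDR12*, a transporter of weak organic acids, rose by 3.38, and of 23 genes of drug and weak acid efflux 11 were called higher (6 with library totals) and 2 lower, with the polyamine exporter *TPO2* at 26.4, 15.0 and 20.0 CPM in WT+IB and 950.1, 1153 and 1173 CPM in Sc12+IB.

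Heat shock genes were another large block. Of 26 genes for heat shock proteins and chaperones 14 were called higher and 1 lower, with a median log2 fold change of 1.44, and the list took 4.47%, 5.18% and 5.07% of the fragments in WT+IB and 9.25%, 9.17% and 9.95% in Sc12+IB. *HSP104*, the disaggregase gene, had 3370, 4381 and 3994 CPM in WT+IB and 15907, 16361 and 20693 CPM in Sc12+IB (log2 fold change 2.17, SE 0.19, adjusted p = 3.0e-10). *HSP30*, a membrane protein gene of the stress response, went from 739, 1303 and 1072 CPM to 10664, 12209 and 14514 CPM and rose by 3.59. *SSA4* and *SSA2*, which encode Hsp70 chaperones, rose by 2.2 and 2.67, with the reservation that members of this family are alike in sequence and short reads may be shared among them. *HSP26* and *HSP12*, small heat shock proteins, had log2 fold changes of 0.39 and 0.86 and were not called. In WT without isobutanol the mean share of the list was 7.83%, above that of WT+IB.

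Hexose transporters moved in both directions. Of 19 genes for transporters and glucose sensors 8 were called higher and 4 lower. *HXT1*, a low-affinity transporter, had 44.4, 69.9 and 66.6 CPM in WT+IB and 1882, 2050 and 2136 CPM in Sc12+IB, and *HXT3* 639, 671 and 618 CPM and 7846, 8268 and 9027 CPM. The groups stood apart for both, with log2 fold changes of 5.07 and 3.71. By contrast *HXT6*, a high-affinity transporter, went from 475, 573 and 569 CPM to 85.1, 81.3 and 75.7 CPM (log2 fold change -2.74), though *HXT6* and *HXT7* are near-identical and their reads may have been divided, and *HXT7* had 0.73. *SUC2*, the invertase gene, had 3238, 3362 and 5550 CPM in WT+IB and 522, 480.5 and 419 CPM in Sc12+IB, a log2 fold change of -3.10. Glycolysis changed less: 3 of 17 genes were called higher and 0 lower, among them *CDC19*, the pyruvate kinase (1.32), and *PFK2*, a phosphofructokinase subunit (1.96). Over all loci tested 16.1% were called higher and 11.1% lower, so the glycolysis genes called higher were near the share of all loci. The median of this list was 0.42, but -0.24 with library totals, and its share of fragments overlapped between the groups, with 7.79%, 11.3% and 9.99% in WT+IB and 6.85%, 7.15% and 7.88% in Sc12+IB.

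Part of the genes for growth without sugar fell. Of 21 genes of the glyoxylate cycle, gluconeogenesis and acetate use 9 were called lower and 2 higher, the latter the acetate transporter homologue *ATO2* (1.36) and the activator *SIP4* (1.49), 10 were not called, and their share of fragments went from 1.62%, 1.55% and 1.51% to 0.707%, 0.665% and 0.603%. *ICL1*, the isocitrate lyase gene, had 1353, 1398 and 1337 CPM in WT+IB and 179, 190.0 and 172 CPM in Sc12+IB (log2 fold change -2.92, SE 0.19, adjusted p = 2.1e-12). *PCK1*, which encodes PEP carboxykinase, went from 1884, 1902 and 1921 CPM to 306, 293 and 262 CPM, and *MLS1*, the malate synthase, from 786, 814 and 730.0 CPM to 25.1, 31.5 and 29.1 CPM. The groups were wide apart for each of these genes. *FBP1*, the fructose bisphosphatase gene of gluconeogenesis, and the mitochondrial carrier *SFC1* fell as well, with -3.50 and -2.64, whereas the activators *CAT8* and *ADR1* were not called, with 0.52 and 0.54, and *SIP4* rose as given above.

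**Figure D3:**
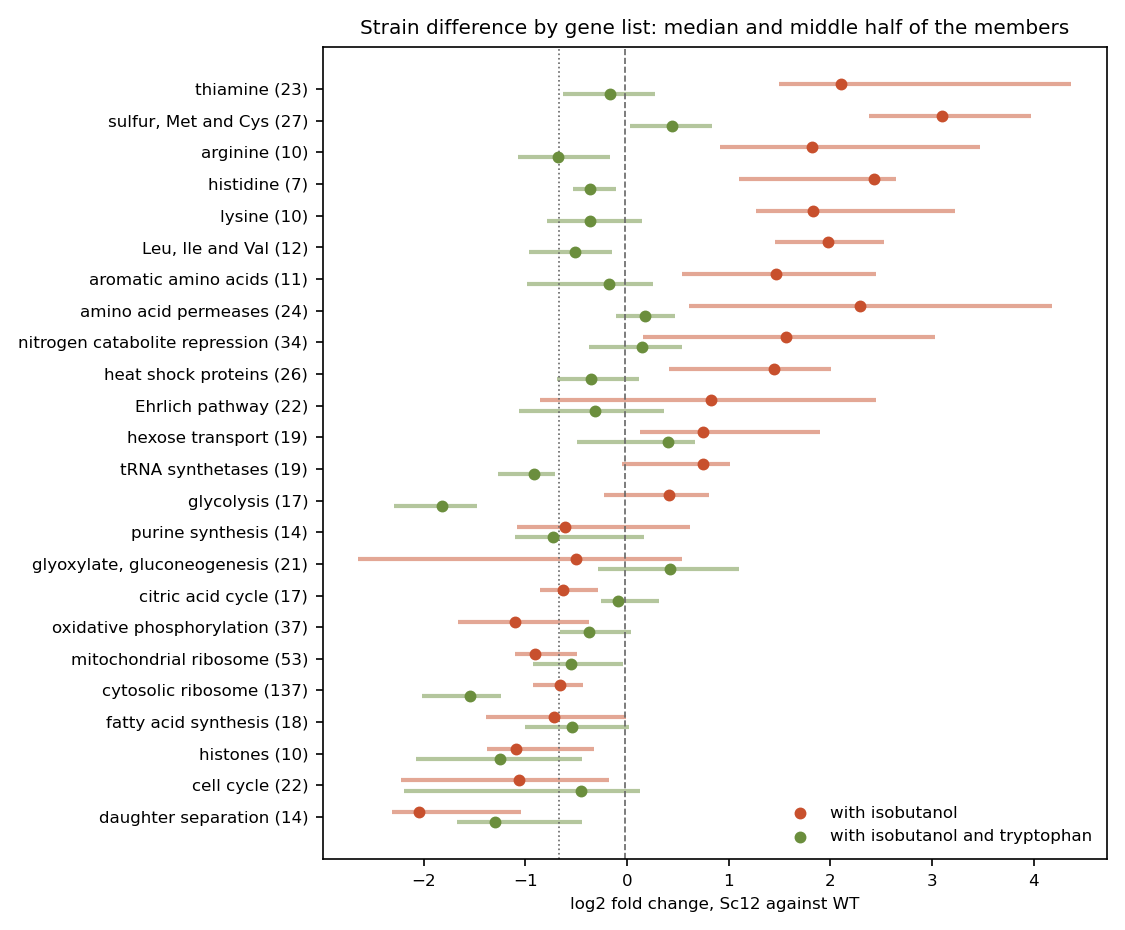
Median log2 fold change (point) and middle 50% of the members (line) for 24 gene lists, with the number of members tested in parentheses, for Sc12+IB against WT+IB in red and Sc12+Trp+IB against WT+Trp+IB in green. The dashed vertical line marks the median of all loci at -0.02 and the dotted line that median with library totals, -0.67.

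Many genes of respiration and of the mitochondrial ribosome were lower. Of 37 nuclear genes of oxidative phosphorylation 19 were called lower and 2 higher, with a median log2 fold change of -1.10, and of 53 genes of the mitochondrial ribosome 22 were called lower and 1 higher, with a median of -0.91. With library totals 28 and 46 were called lower. *ATP17*, an ATP synthase subunit gene, had 246, 246 and 215 CPM in WT+IB and 52.7, 43.4 and 41.8 CPM in Sc12+IB (log2 fold change -2.36, SE 0.12), and *MRPL50* went from 105, 95.2 and 83.7 CPM to 18.2, 18.1 and 15.1 CPM. A pair of isoform genes separated: *CYC7*, the cytochrome c form known from oxygen-poor cells, had 57.0, 48.4 and 51.8 CPM in WT+IB and 450.2, 446 and 379 CPM in Sc12+IB, while *CYC1*, the main form, had 142, 44.6 and 68.7 CPM and 10.6, 12.4 and 9.5 CPM, a fall that was 7.87-fold with all libraries and 5.16-fold without WT+IB replicate 1. *COX5B* and *COX5A*, alternative forms of a cytochrome c oxidase subunit, had log2 fold changes of 1.05 and -1.40, and the former lost its call without Sc12+IB replicate 3. In the citric acid cycle 2 of 17 genes were called higher and 3 lower, but 0 higher and 12 lower with library totals. Of all loci tested 16.1% were called higher and 11.1% lower, and 8.07% and 33.9% with library totals. *IDH1*, of isocitrate dehydrogenase, was at 1.02, a call lost when Sc12+IB replicate 3, WT+IB replicate 2 or WT+IB replicate 3 was left out (0.92 to 0.99), and *FUM1*, fumarase, at -1.39.

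Cytosolic ribosomal protein genes had a median of -0.66, with 27 of 137 called lower and 1 higher, a count that ran from 16 to 35 lower when 1 library was left out. With library totals 109 were called lower and 0 higher, with a median of -1.31. Their share of fragments was 3.20%, 3.87% and 2.99% in WT+IB and 1.48%, 1.43% and 1.22% in Sc12+IB. *RPS28A* had 89.1, 99.6 and 57.2 CPM in WT+IB and 32.7, 13.3 and 9.2 CPM in Sc12+IB, a fall that grew from 4.40-fold to 7.36-fold without Sc12+IB replicate 1, and *RPS25B* rose by 1.14. Many of these genes have a near-identical copy. The list of 137, called ribosomal protein genes here and below, also holds *RPP1* (-0.73, not called), a gene of RNase P and not of the ribosome. Beside these falls stands a relation to length: of loci up to 300 bases long 25.1% were called lower and 12.0% higher, and of loci over 2400 bases 4.18% and 15.0%, and the part of length in these results was not tested. *TOM5*, a short gene of the mitochondrial import pore, was at 17.4, 15.3 and 11.7 CPM and 2.81, 1.41 and 0.302 CPM, and its fall of 9.43-fold became 17.0-fold without Sc12+IB replicate 1.

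Lipid genes fell in part. In fatty acid synthesis, elongation and desaturation 8 of 18 genes were called lower (11 with library totals) and 1 higher. Those that fell include the fatty acid synthase genes *FAS1* (-1.47) and *FAS2* (-1.42) and the acetyl-CoA carboxylase gene *ACC1* (-1.41). *OPI3*, which encodes a methyltransferase of phosphatidylcholine synthesis, had 1114, 1476 and 1272 CPM in WT+IB and 154, 155 and 145 CPM in Sc12+IB. The groups did not overlap, with a log2 fold change of -3.09 (SE 0.13, adjusted p = 8.1e-16), and *INO1*, the inositol-3-phosphate synthase gene, also fell (-1.31). *CKI1*, the choline kinase gene, rose by 1.91. These 3 genes are from a list of 20 for inositol and phospholipid synthesis, of which 4 were called lower and 2 higher. In sterol synthesis 3 of 27 genes were called lower and 4 higher, and in peroxisomal beta-oxidation 0 of 15 lower and 1 higher. Over all loci tested 11.1% were called lower and 16.1% higher, so the sterol list was near the share of all loci. With library totals the phospholipid, sterol and beta-oxidation lists had 9, 13 and 7 genes called lower and 1, 0 and 0 higher. In that setting 33.9% of all loci were called lower and 8.07% higher.

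Many genes of division were lower in Sc12+IB. Of 22 cyclin and cell cycle genes 12 were called lower and 2 higher, of 10 histone genes 5 lower and 0 higher, and of 14 genes of daughter cell separation 10 lower and 1 higher. *CLN2*, a G1 cyclin gene, had 273, 171 and 193 CPM in WT+IB and 28.7, 32.8 and 26.8 CPM in Sc12+IB (log2 fold change -2.85, SE 0.15, adjusted p = 3.5e-14). *CLN1* and *PCL1* fell with log2 fold changes of -2.89 and -2.90, as did the mitotic cyclin gene *CLB2* (-2.45) and the cohesin gene *MCD1* (-3.05), whereas *CDC20*, the activator of the anaphase-promoting complex, rose by 3.22. *CLN3*, the cyclin that acts first in G1, rose by 1.07, a call lost without WT+IB replicate 2 (0.85). For daughter separation the WT+IB libraries stood far apart: *DSE1* had 589, 144 and 245 CPM in WT+IB and 25.3, 26.6 and 18.1 CPM in Sc12+IB, and *DSE2* 767, 131 and 282 CPM and 34.3, 33.6 and 30.2 CPM. WT+IB replicate 1 was the highest for both. Leaving it out moved the fall of *DSE1* from 14.0-fold to 8.24-fold, of *DSE2* from 12.0-fold to 6.24-fold, of the glucanase gene *SCW11* from 10.7-fold to 5.56-fold and of the chitinase gene *CTS1* from 4.62-fold to 2.79-fold, and all stayed called. The mRNA of *SWI5*, a transcription factor gene of the cell cycle, fell (-1.74).

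The letters ACCAGC, bound by Swi5, were in 6 of 14 promoters of daughter separation genes against 13.4% of all promoters, on either strand of 500 bases. Of the DEGs that were lower 19.0% held a match, and of the DEGs that were higher 12.9%. Windows of *DSE1* (chrV:409394-409513, minus strand) and *DSE2* (chrVIII:385085-385204, plus strand) from RefSeq R64 are shown with the matches in capitals. These windows were placed to hold matches, and the 500 bases before *SCW11* and *CTS1* held 0. 3 other motifs were searched in the same way, AGGGG of the stress response, TGAAAC of the pheromone response and GATGAG of the PAC element, and were in 34.2%, 30.0% and 27.9% of all promoters and in 40.8%, 26.4% and 27.1% of those of DEGs that were higher.
DSE1: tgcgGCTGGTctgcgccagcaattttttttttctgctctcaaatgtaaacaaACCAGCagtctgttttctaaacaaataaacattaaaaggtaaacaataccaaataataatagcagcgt
DSE2: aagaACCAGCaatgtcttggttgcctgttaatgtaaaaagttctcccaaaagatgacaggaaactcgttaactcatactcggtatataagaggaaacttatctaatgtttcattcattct

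Over all 50 lists, the share of fragments did not overlap between WT+IB and Sc12+IB for 41, and the exact two-sided permutation test gave its smallest possible p of 0.1 for these (n = 3 per group), so no share could pass a threshold of 0.05. For single loci, 74.2% of all loci tested did not overlap between the 6 libraries. Among the 52 transcription factor genes of these pathways, 21 were called higher and 2 lower (11 and 7 with library totals), including *BAS1* of purine and histidine synthesis (3.00), *UGA3* of GABA use (3.35) and *LEU3* of leucine synthesis (2.16).

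With tryptophan in the medium the strains also differed under isobutanol, and 11.8% of loci were called higher and 12.2% lower in Sc12+Trp+IB than in WT+Trp+IB. These 6 libraries are not those compared above. Of the DEGs higher in Sc12+IB, 26.7% were also called higher with tryptophan (36.4% of those called there), and of the DEGs lower in Sc12+IB, 41.5% were also called lower (37.5% of those called there). Of 23 thiamine genes 0 were called higher and 3 lower with tryptophan, of 27 sulfur genes 4 higher and 1 lower, of 10 arginine genes 0 and 4, and of 24 permease genes 0 and 2. Of 17 glycolysis genes 14 were called lower there, with a median of -1.82, and of 137 ribosomal protein genes 113, with a median of -1.55. The difference between both strain contrasts was tested as an interaction, which called 15.5% of loci higher and 9.94% lower without tryptophan. It was called higher for 19 of the 23 thiamine genes, 23 of the 27 sulfur genes, 10 of 10 arginine genes, 15 of 17 glycolysis genes and 64 of the 137 ribosomal protein genes, of which the median strain difference was lower with tryptophan.

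The falls divided by this test. *MLS1* had a strain difference of -4.77 on the log2 scale without and -0.92 with tryptophan (interaction -3.85, adjusted p = 3.5e-11), *PCK1* -2.73 and 0.26 (interaction -2.99), *OPI3* -3.09 and -0.18 (interaction -2.91) and *ADH2* -2.72 and 0.95 (interaction -3.67). All 4 interactions were called. For *PTR2*, in contrast, the values were -3.18 and -3.43, for *SUC2* -3.10 and -2.92, for *PSA1*, which makes GDP-mannose, -2.99 and -3.0, for *CLN2* -2.85 and -2.53 and for *ARO10* -3.31 and -2.96. The interactions of these 5 genes were 0.25, -0.18, 0.01, -0.32 and -0.35, with standard errors of 0.32, 0.31, 0.36, 0.20 and 0.39, and were not called, which does not show that the contrasts are alike. *GCN4* mRNA was called lower in Sc12 with tryptophan (-1.65) and its interaction was called (1.76, adjusted p = 6.5e-08).

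**Figure D4:**
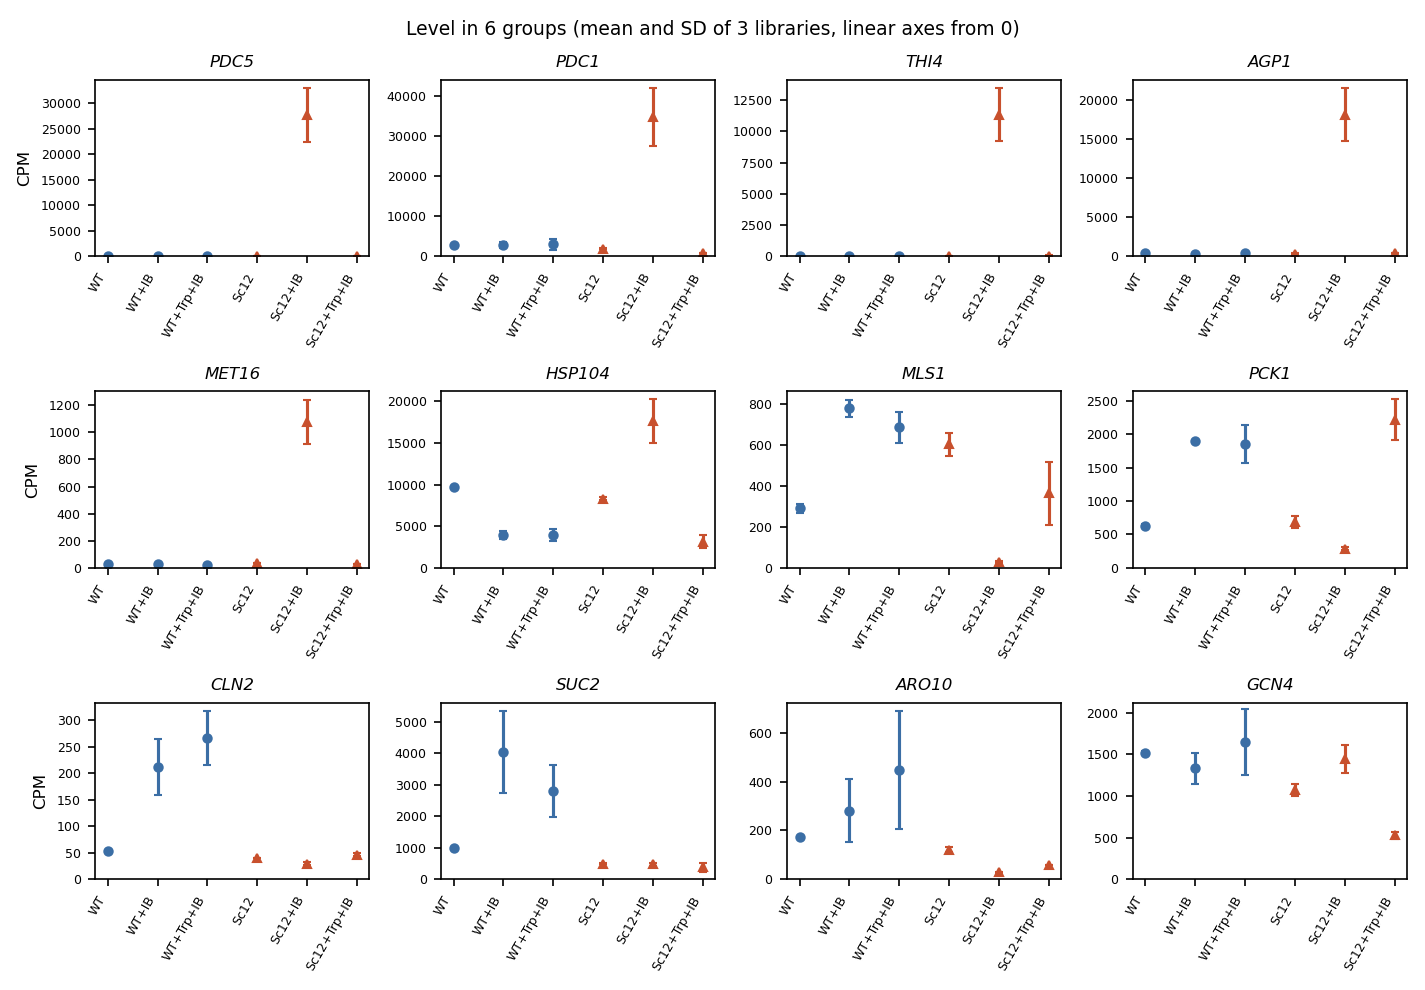
Mean level in CPM (linear axes from 0) with the SD of 3 libraries for 12 genes in 6 groups, WT in blue circles and Sc12 in red triangles. *PDC5*, *THI4*, *AGP1* and *MET16* stand high in Sc12+IB alone among these groups, *MLS1* and *PCK1* stand low there, and *CLN2*, *SUC2* and *ARO10* lie below WT+IB in all 3 Sc12 groups.

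Without isobutanol the strains differed at 3.31% of loci, with 1.78% called higher and 1.53% lower in Sc12 than in WT. 1 of these Sc12 libraries, replicate 3, was marked as a make-up library and had 5218711 fragments, and the count of DEGs ran from 197 to 211 when each library was left out. Of the DEGs higher in Sc12+IB 4.30% were also called higher in Sc12 without isobutanol, and of those lower 4.56% were also called lower. In this comparison 0 of 23 thiamine genes, 0 of 27 sulfur genes and 0 of 10 lysine genes were called in either direction by edgeR. Of the nitrogen catabolite repression genes 5 of 34 were called lower, among them *GAP1* (-1.36), *MEP2* (-1.19) and *PTR2* (-1.66). The interaction of strain and isobutanol called 16% of loci higher and 9.27% lower, with 20 of the 34 nitrogen catabolite repression genes called higher.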

How the data were processed

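RNA of 24 yeast libraries was sequenced by the authors as single-end reads, and per the labels and the study's methods these were converted with bcl2fastq 2.18, trimmed with Trimmomatic 0.39, aligned to sacCer3 with TopHat2 2.1.1 and quantified with Cufflinks 2.2.1. The annotation is not given in the sources used here. The authors deposited estimated counts of fragments per locus and library without scaling, of which 98.83% lie within 0.001 of a whole number, and FPKM, which they scaled by length and between libraries. Tables of the authors' own comparisons, with log2 fold changes and p-values, were read for locus names and positions alone.

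Of 6929 loci, 24 with a failed estimate were left out. Fragments were rounded, and the 6346 loci whose FPKM averaged 1 or more across the libraries were fitted with edgeR 4.0.16 (R 4.3.3, TMM, 8 group means, quasi-likelihood, 16 residual degrees of freedom), with p adjusted by Benjamini-Hochberg over these loci. A call needed an absolute log2 fold change above 1 and an adjusted p below 0.05. Of the loci, 102 join several genes and 1088 overlap another, so their fragments are not fully separate. Total depth was 5218711 to 14580261 fragments per library, which sets the precision of low loci. The file numbers its replicates from 0 and these were taken as the replicates of the labels in order.

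The members and the 50 gene lists were chosen with earlier results of these data known. Some genes are members of several lists, so the lists are not independent of each other. Spellings of some list members were corrected, and members with no locus removed, once the loci had been read. The named genes are *TRP5* and its neighbours, the 20 largest rises and 20 largest falls without overlap and with a mean of at least 10 CPM in the higher group, up to 6 members in each direction of each list, and the regulators. A few of them are not reported here. A few other members were named after their values were seen. Lists carry counts and medians and no test, and shares of fragments an exact permutation test. Alternatives were library totals, RLE factors, DESeq2 1.42.0, limma 3.58.1 on log2(FPKM + 1) and log2(FPKM + 0.1), other filters, the compared groups alone, a replicate block, overlapping loci left out and each library left out, the last for the shares added after seeing the data. The fit was tested on simulated data over 6346 loci for this comparison and called 100% of 100 loci changed 4-fold, with 1 false call. Of 100 loci changed 2-fold, which is the fold threshold itself, 99% passed the p threshold and 51% were called. The TMM factors were 0.687, 0.651 and 0.588 in Sc12+IB and 1.05, 0.984 and 0.988 in WT+IB. The rate of false calls under factors this far apart was not tested.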

Additional observations from a re-analysis of the deposited data

Results flagged for a closer look

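The strain difference under isobutanol alone differed from that of the strains in other conditions at many loci, tested as interactions with edgeR. Against the strains without isobutanol, 1016 loci had a higher and 588 a lower strain difference in isobutanol, and against the strains with isobutanol and tryptophan these were 986 and 631. These counts are not independent of the calls in the report, since they share libraries with them.

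Of all loci tested, 61 were called higher in Sc12 than in the wild type under isobutanol alone but lower with isobutanol and tryptophan, and 10 the reverse. These were 5.96% of the DEGs higher in Sc12+IB and 1.42% of those lower. Over all loci, 12.2% were called lower and 11.8% higher with tryptophan, so opposite calls were rarer among the DEGs. All genes within the rule for named genes that had such opposite calls, and whose interaction was called, are given here by that interaction on the log2 scale. The pyruvate decarboxylase *PDC1* had 5.53 and the hexose transporter *HXT3* 4.80. In amino acid synthesis, *ASN1* had 4.61, *HOM3*, the aspartate kinase gene, 4.29, *ARO4* 4.25, *ARG1* 3.57, *ILV3* 3.48, *HIS7* 3.44, *ARO1* 3.15 and *ARO2* 3.13. Among the tRNA synthetases *KRS1* had 4.14 and *ILS1* 2.82, and in sugar metabolism *CDC19* had 3.45, *PFK2* 2.99 and the transketolase gene *TKL1* 2.32. The Hsp70 gene *SSA2* had 4.08, the autophagy gene *ATG41* 3.81, the choline kinase gene *CKI1* 3.39, *SNO1* of vitamin B6 metabolism 2.33 and the sterol gene *ERG25* 2.26. *GDH3*, a glutamate dehydrogenase gene, went the other way, with -2.62. Groups of 3 libraries were not tested for outliers.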

How the results depend on the processing

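The 1726 DEGs became 2666 with library totals (512 higher and 2154 lower, against 1024 and 702) and 4666 by adjusted p alone. Under library totals the interactions counted 2899 and 2776 loci. Limma on log2(FPKM + 1) and log2(FPKM + 0.1) gave 94 and 95 DEGs for Sc12 against WT, 997 and 985 for the interaction with isobutanol, and 991 and 986 for that with tryptophan. The cause was not tested. Leaving out each library gave 1647 to 1801 DEGs, 197 to 211 without isobutanol, 1456 to 1562 with tryptophan, and 1525 to 1669 and 1563 to 1653 for the interactions. The deviations of libraries with the same replicate number had correlations of 0.0215, -0.0543 and 0.119, so the numbers were not taken as pairs, and with the replicate block there were 1724 DEGs and all 308 named genes kept their call. Of these genes 219 kept their call in all 16 alternatives and 276 when each library was left out. Of 4889 values 206 lost the call, 61 of them with library totals, and 1 turned: *GCN4*, -0.55 with library totals. Calls lost when a library was left out were mostly of genes near the fold threshold, and otherwise of *RPL41A*, *RPL41B*, *snR33*, *snR59* and *snR78*, whose adjusted p rose past 0.05. The difference in share of fragments (Sc12+IB minus WT+IB, in percentage points) turned for oxidative stress genes without WT+IB replicate 1 (0.0037), for glycerol genes without WT+IB replicate 2 (0.00095), and for snoRNA without WT+IB replicate 3 (-0.0015) and without Sc12+IB replicate 1 (-0.0044), all lists whose groups overlapped. Over the libraries left out, these differences ran from -0.0328 to 0.0037, from -0.0214 to 0.00095 and from -0.0044 to 0.0054.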
